A study of Mus musculus with 8 samples.

Results

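The genes of oxidative phosphorylation (OXPHOS) were examined in ventral hippocampal RNA of 8 C57BL/6 J females. They were chosen by symbol alone, as the subunits of complexes I to V and cytochrome c that are encoded in the nucleus, together with COX1, COX2, COX3, ATP6, ATP8 and CYTB of the mitochondrial genome. The rule took 96 of the 29442 genes in the count table, 90 nuclear and 6 mitochondrial, and used no measured value. All 96 had at least 1 count and were tested, and 86 had a mean count of at least 100. Mice of 6 to 8 weeks received subcutaneous dehydroepiandrosterone (DHEA, an adrenal androgen precursor) at 30 mg/kg/day or its vehicle, sesame oil, for 21 days, with 4 mice in each group. Per the methods, mice of both groups went through behavioral tests between the last injection and dissection. No other genotype or agent is named for either group. The methods name littermates as the controls, but nothing says which libraries shared a litter or cage. Libraries are named by group and by the number in their label (DHEA 3, 4, 7 and 11, Sesame Oil 5, 9, 10 and 16). The groups follow the deposited treatment labels. The study's own list of differentially expressed genes carries the opposite sign, so a direction given here is that of the libraries as labelled.

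The DHEA libraries held 35748416 to 38038361 counts each and the Sesame Oil libraries 31483772 to 35418297, so that depth moved with the group. The tissue label was checked against hippocampal markers. All 10 were detected, at a summed 1113 to 1371 CPM (counts scaled to a library of 1000000) per library, with Zbtb20 the most abundant, and 1 of them (Spink8) was higher in DHEA at an unadjusted p under 0.05. Over the 12780 genes averaging 100 counts or more, the first principal component held 41.8% of the variance. DHEA 4 and DHEA 3 lay at 29.1 and 16.9 on it and the other 6 libraries between -9.19 and -3.5. The members called and the medians over the nuclear and the mitochondrial members are therefore given with and without these 2 libraries. Medians of single complexes, counts of members above 0 and results for other gene lists are given with all libraries only.

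OXPHOS moves electrons from NADH and succinate through complexes I and II, ubiquinone, complex III, cytochrome c and complex IV to oxygen, and complex V (ATP synthase) uses the proton gradient built on the way to make ATP. Complexes I, III, IV and V are mosaics of subunits made in the cytosol and a few made inside the mitochondrion, while complex II is wholly nuclear. Neurons draw most of their ATP from this pathway. Transcription of the nuclear genes is commonly attributed to the factors NRF1, GABP, YY1 and ERR.

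Promoter sequence is shown because these genes are usually thought of as one co-regulated set. RefSeq promoters (GRCm38.p6, 250 bases before to 50 after the start) were matched by symbol for 71 of the 90 nuclear members, and the first was used for the 5 genes with several. They were searched on both strands for CGCATGCG (NRF1, its own reverse complement), CCGGAAGT (GABP), AAGATGGC (YY1) and AAGGTCA (ERR). In no promoter of a member did 2 different motifs overlap. The NRF1 letters occurred in 9 of the 71 promoters (12.7%), against 1.91% of 27025 promoters in the table. The YY1 letters occurred in 9 (12.7%, against 2.88%), the ERR letters in 8 (11.3%, against 4.66%) and the GABP letters in 5 (7.04%, against 4%). None of the 4 was found in 43 of the 71, which says only that these exact letters are not in this window. Among the 14 promoters of members that were higher in DHEA at an unadjusted p under 0.05, 1 held the NRF1, 0 the GABP, 3 the YY1 and 2 the ERR letters. The promoters of Ndufs6, Atp5l and Cycs follow, with the motifs in capitals. Ndufs6 (chr13:73328433-73328732, minus strand) and Atp5l (chr9:44920693-44920992, minus strand) encode subunits of complexes I and V, and Cycs (chr6:50566520-50566819, minus strand) is somatic cytochrome c.
Ndufs6: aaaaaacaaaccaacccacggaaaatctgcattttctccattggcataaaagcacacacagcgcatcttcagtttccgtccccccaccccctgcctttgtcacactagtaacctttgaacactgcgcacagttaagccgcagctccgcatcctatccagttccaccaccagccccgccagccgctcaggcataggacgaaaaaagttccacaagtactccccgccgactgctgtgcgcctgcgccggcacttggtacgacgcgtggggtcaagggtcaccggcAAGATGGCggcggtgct
Atp5l: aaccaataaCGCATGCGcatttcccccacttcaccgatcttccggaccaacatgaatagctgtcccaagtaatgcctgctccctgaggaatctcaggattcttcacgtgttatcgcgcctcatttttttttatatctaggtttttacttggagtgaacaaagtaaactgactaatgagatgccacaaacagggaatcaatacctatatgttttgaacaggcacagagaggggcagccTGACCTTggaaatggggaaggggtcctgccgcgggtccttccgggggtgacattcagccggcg
Cycs: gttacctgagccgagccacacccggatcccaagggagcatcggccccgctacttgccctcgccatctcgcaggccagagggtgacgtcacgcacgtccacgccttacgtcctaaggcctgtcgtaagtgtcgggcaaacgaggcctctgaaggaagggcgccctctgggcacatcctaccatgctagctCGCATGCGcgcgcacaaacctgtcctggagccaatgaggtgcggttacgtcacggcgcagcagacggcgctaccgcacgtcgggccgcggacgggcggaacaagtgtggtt

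In the comparison of DHEA with sesame oil, 83 of the 96 members had a log2 fold change above 0, beside 14141 of all 27612 genes tested. By the quasi-likelihood test of edgeR, 18 members were higher and 1 (Ndufa12) was lower in DHEA at an unadjusted p under 0.05. Among all 27612 genes tested, 4.82% were higher and 4.49% lower by the same rule. No gene of the table, and hence no member, passed 0.05 after adjustment in this test (0% of 27612 genes, with 2571 at an unadjusted p under 0.05). DESeq2 gave 153 genes and edgeR with robust moderation 4 genes with an adjusted p under 0.05, and 0 members were among either. The edgeR test gave 93 such genes without DHEA 7, 12 without DHEA 11 and 38 without both DHEA 11 and Sesame Oil 9. With any other single library left out it gave 0 to 2. No member was among them in any of these fits. With a 2-fold change required beside the unadjusted p, as in the methods of the study, 1.6% of genes and 1 member were called. This was Cox7b2, with 0 to 11 counts per library. Where "higher" or "lower" is used of a member below, it refers to the unadjusted p.

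The differences were small. Among the 80 nuclear members with a mean count of at least 100, log2 fold changes ran from -0.21 to 0.24 with a median of 0.096, against a median of 0.012 over the 12780 genes of that abundance. Of these 80, 72 lay above 0 (6830 of the 12780 did), 15 were higher and 1 was lower, while 8.08% of the 12780 genes were higher and 7.6% lower. The 4 libraries labelled DHEA lay entirely above the 4 labelled Sesame Oil for 5 of the 80 and entirely below for 0, against 4.23% and 4.23% of all such genes. With the mitochondrial members, 7 were apart in this way, namely COX1, CYTB, Ndufa5, Ndufa13, Cox6c, Cox7c and Atp5j. Any gene whose groups are apart has a two-sided exact permutation p of 0.0286, the smallest that 4 against 4 libraries allow. For these 7 that p follows from how they were picked and adds nothing.

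**Figure D1:**
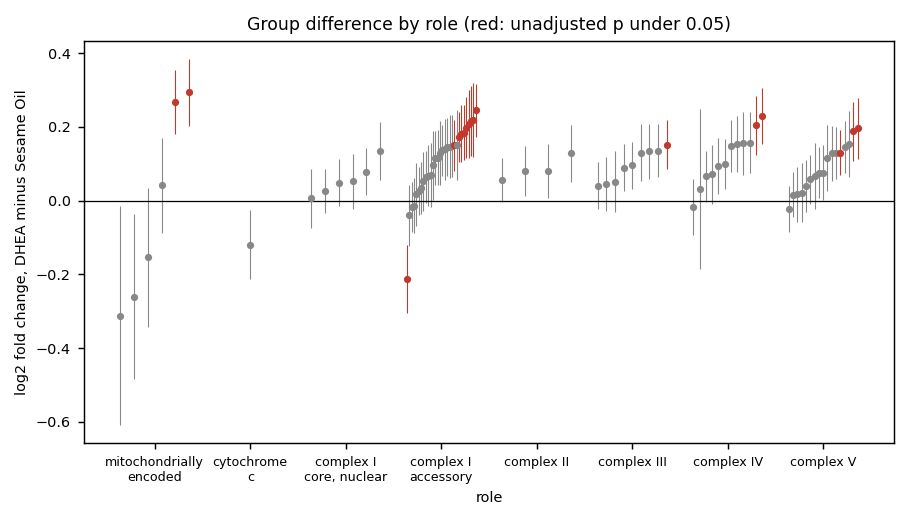
Log2 fold change (DHEA minus Sesame Oil, y axis) with its standard error for 85 of the 86 members with a mean count of at least 100, sorted within each role (x axis). Red points have an unadjusted p under 0.05: 15 nuclear members above 0, 1 below 0 (Ndufa12), and COX1 and CYTB among the mitochondrially encoded members.

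The 7 nuclear core subunits of complex I, among which are those that bind its flavin and iron-sulphur clusters, had a median log2 fold change of 0.049, and 0 of them passed the unadjusted threshold. The largest among them was that of Ndufs8, at 0.14 (standard error 0.078, edgeR adjusted p = 0.604). The 34 accessory members, which surround and stabilise the core, had a median of 0.13, and 9 were higher and 1 was lower. Ndufa5, a subunit of the peripheral arm, had the smallest p of all 96 members. It was measured at 63.8, 74.4, 61.2 and 61.7 CPM in DHEA 3, 4, 7 and 11 and 53.2, 57.2, 55 and 54.9 CPM in Sesame Oil 5, 9, 10 and 16. All 4 libraries labelled DHEA lay above all 4 labelled Sesame Oil, and the log2 fold change was 0.24 (standard error 0.072, edgeR adjusted p = 0.293).

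Ndufa13, also known as GRIM-19, was at 93.2, 97.4, 81.9 and 83.2 CPM in DHEA 3, 4, 7 and 11 and 79.7, 79.6, 75.6 and 80.9 CPM in Sesame Oil 5, 9, 10 and 16. The groups did not overlap, although DHEA 7 and 11 lay within 3 CPM of Sesame Oil 16. The log2 fold change was 0.17 (standard error 0.068, edgeR adjusted p = 0.439). Ndufa13 missed the threshold in 5 of the 23 alternatives, among them without DHEA 3, DHEA 4 or Sesame Oil 10. Ndufs6, a zinc-binding accessory subunit, had 0.20 (standard error 0.083, edgeR adjusted p = 0.477), and Ndufs4, an accessory subunit whose loss is a mouse model of Leigh syndrome, had 0.18 (standard error 0.078, edgeR adjusted p = 0.496). Ndufa4, which is now assigned to complex IV although its symbol is that of complex I, had 0.18 (standard error 0.074, edgeR adjusted p = 0.442). In these 3 genes the groups overlapped, and none of the 3 passed the threshold without DHEA 4. Of the 23 alternatives, Ndufs6, Ndufs4 and Ndufa4 missed it in 6, 9 and 9. The other higher accessory members were Ndufc1, Ndufa1, Ndufb5 and Ndufb2, at log2 fold changes of 0.21, 0.22, 0.15 and 0.22. Of the 23 alternatives, they missed the threshold in 8, 15, 12 and 16. DESeq2 was among these for Ndufa1, Ndufb5 and Ndufb2.

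Ndufa12, a late-assembled accessory subunit, was the exception in direction. It was at 87.3, 88.6, 67.2 and 66.2 CPM in DHEA 3, 4, 7 and 11 and 98.2, 85.1, 83.9 and 91.2 CPM in Sesame Oil 5, 9, 10 and 16. DHEA 7 and 11 lay below every other library, while DHEA 3 and 4 lay within the range of the Sesame Oil libraries. The log2 fold change was -0.21 (standard error 0.093, edgeR adjusted p = 0.5) and the two-sided exact permutation p 0.2, and it missed the threshold without DHEA 7, DHEA 11, Sesame Oil 5 or Sesame Oil 16. Cycs had a similar layout, at 107, 107, 80.3 and 78.6 CPM in DHEA 3, 4, 7 and 11 and 107, 95.4, 102 and 101 CPM in Sesame Oil 5, 9, 10 and 16. The 2 lowest libraries were again DHEA 7 and 11. Its log2 fold change was -0.12 (standard error 0.093, edgeR adjusted p = 0.666). It missed the threshold with all libraries but passed it as lower in 4 of the 23 alternatives, namely without DHEA 3, without DHEA 4, without both and with the GC trend removed.

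The 4 subunits of complex II, the succinate dehydrogenase shared with the tricarboxylic acid cycle, all lay above 0 with a median of 0.08, and none passed the threshold. Their log2 fold changes ran from 0.056 (Sdha) to 0.13 (Sdhb). Without DHEA 3 and 4, Sdha was at -0.012 and Sdhb at -0.018. All 9 members of complex III lay above 0 as well, with a median of 0.096, and 1 was higher. This was Uqcrc2, a core protein of the complex, at 0.15 (standard error 0.066, edgeR adjusted p = 0.496). It missed the threshold in 8 of the 23 alternatives, among them without DHEA 3, without DHEA 4 and with the length trend removed. Uqcrh, the hinge protein and most abundant of the 9 per length, had 0.09 (standard error 0.064, edgeR adjusted p = 0.663). Its log2 fold change was -0.0063 without DHEA 3 and 4 and -0.023 with the length trend removed.

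Complex IV had a median of 0.15 over 18 members, of which 3 were higher, and of 0.12 over the 12 with a mean count of at least 100. Cox6c, a small membrane subunit, was at 162, 178, 136 and 140.2 CPM in DHEA 3, 4, 7 and 11 and 134, 129, 129 and 134 CPM in Sesame Oil 5, 9, 10 and 16. DHEA 3 and 4 were well above the rest, and DHEA 7 exceeded the highest Sesame Oil library by about 2 CPM. The log2 fold change was 0.23 (standard error 0.076, edgeR adjusted p = 0.34). Cox7c was at 137, 152, 115 and 116 CPM in DHEA 3, 4, 7 and 11 and 113, 111, 114 and 113 CPM in Sesame Oil 5, 9, 10 and 16, so that the groups were apart but DHEA 7 exceeded Sesame Oil 10 by under 1 CPM. Its log2 fold change was 0.20 (standard error 0.08, edgeR adjusted p = 0.429). It missed the threshold in 6 of the 23 alternatives, among them without DHEA 4 and with the length or the GC trend removed. The third was Cox7b2, at 0 to 11 counts. Of the 17 members of complex V (median 0.077), 3 were higher, namely Atp5md and Atp5l, both small membrane subunits, with 0.19 (standard error 0.079, edgeR adjusted p = 0.482) and 0.20 (standard error 0.083, edgeR adjusted p = 0.487), and Atp5j, coupling factor 6, with 0.13 (standard error 0.061, edgeR adjusted p = 0.531). Atp5md and Atp5l missed the threshold in 11 and 12 of the 23 alternatives, with DESeq2 among these for both. Atp5j missed it in 14 of the 23, among them DESeq2 and the fits without DHEA 3, DHEA 4 or any 1 of the Sesame Oil libraries. The catalytic subunit Atp5b, the most abundant nuclear member per length at a mean of 470.1 FPKM (fragments per kilobase, scaled to the library total), had 0.06 (standard error 0.067, edgeR adjusted p = 0.741).

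**Figure D2:**
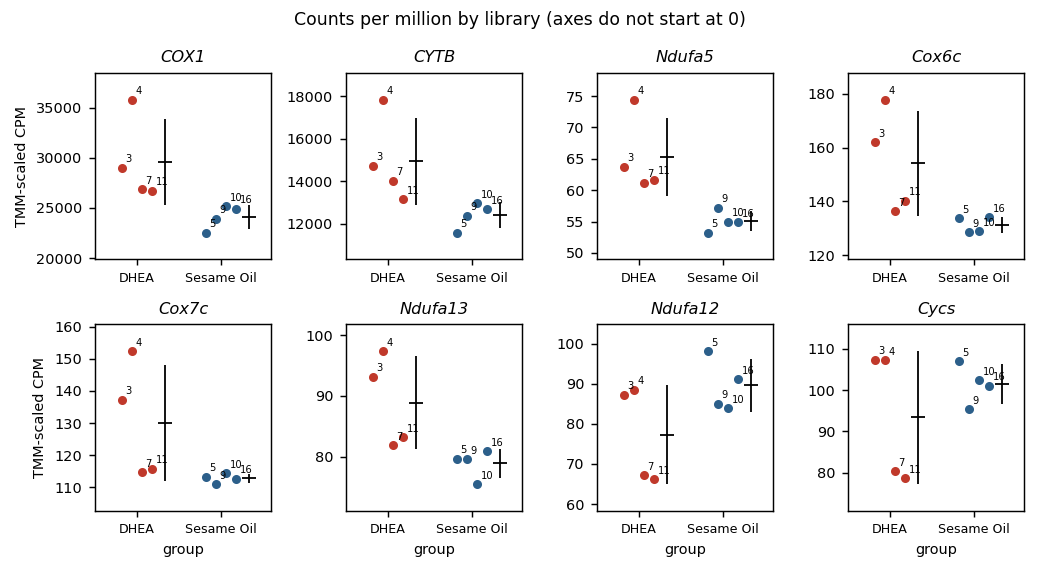
TMM-scaled CPM (y axis) of 8 members in each library (points, numbered by mouse), with the mean and SD of each group (n = 4) in black; the axes do not start at 0. In COX1, CYTB, Ndufa5, Cox6c, Cox7c and Ndufa13 all red points (DHEA) lie above all blue ones (Sesame Oil), with DHEA 4 the highest, and in Ndufa12 and Cycs DHEA 7 and 11 are the lowest.

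Most of the difference in the nuclear members was carried by DHEA 3 and DHEA 4. Each gene's log2(CPM + 0.5) was centred on its mean over the 8 libraries, and the median over the 80 nuclear members was taken in each library. It was 0.14 in DHEA 3, 0.2 in DHEA 4, -0.099 in DHEA 7 and -0.04 in DHEA 11. In Sesame Oil 5, 9, 10 and 16 it was -0.041, -0.061, -0.073 and -0.019. The lowest and the 2 highest libraries thus all carried the DHEA label. Of the 80 members, 54 were highest in DHEA 4 and 24 in DHEA 3, while 30 were lowest in DHEA 7. Both DHEA 3 and DHEA 4 exceeded the other 6 libraries for 64 of the 80 (80.0%), against 20.4% of the 12780 genes. As a share of nuclear counts the nuclear members made up 1.03% and 1.06% in DHEA 3 and 4, 0.898% and 0.936% in DHEA 7 and 11, and 0.919% to 0.943% in the Sesame Oil libraries.

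**Figure D3:**
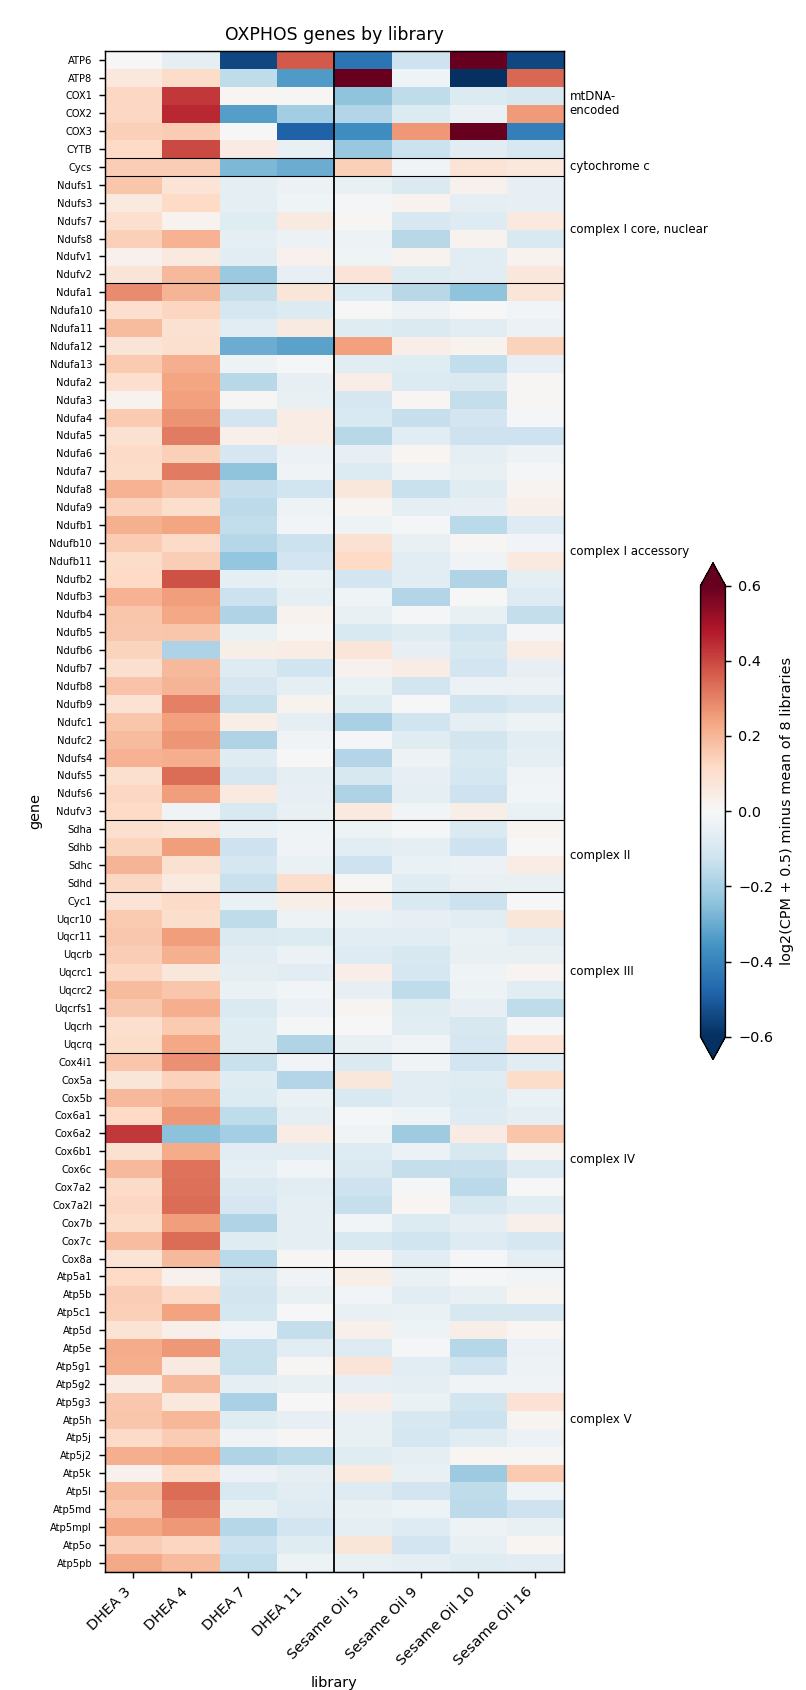
Deviation of log2(CPM + 0.5) from each gene's mean over 8 libraries (colour, limited to 0.6 either way) for 85 of the 86 members with a mean count of at least 100 (rows, by role) in the 8 libraries (columns; the line divides the groups). DHEA 3 and 4 are red across nearly all nuclear rows (medians 0.14 and 0.2), and DHEA 7 is blue in most (median -0.099).

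With both DHEA 3 and DHEA 4 left out, an alternative chosen after the data were seen, 3 members were higher and 7 lower in DHEA, beside 3.99% and 3.89% of all genes in that fit, and the median over the nuclear members was -0.018. Of the 19 members called with all libraries, 4 were also called there, namely COX1, CYTB and Ndufa5 as higher and Ndufa12 as lower. COX2, Cycs, Ndufb10, Ndufb11 and Atp5j2 were among those then lower. Without DHEA 4 alone, 5 of the 19 stayed called, namely COX1, CYTB, Ndufa5, Cox6c and Ndufa12. With DHEA 3 alone left out 8 members were called in either direction (7.08% of all genes), and with DHEA 4 alone 6 (7.26%). Without DHEA 7, 42 members were higher (6.51% of all genes) and without DHEA 11, 29 (5.74%), with 0 lower in both. Of the controls, leaving out Sesame Oil 5, 9 or 10 left 11, 9 and 8 members higher, beside 3.31%, 4.46% and 3.91% of all genes. Ndufa5 stayed past the threshold under each of the 23 alternatives tried. COX1 and CYTB, which 1 of these alternatives removes with the other mitochondrial genes, did so under the other 22 except limma-trend on the logarithm of FPKM, at either pseudocount (1 or 0.1).

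Genes of several other lists were also higher in DHEA, and their part in the result was not tested. The 87 cytosolic ribosomal protein genes, which are also short and abundant mRNAs, had a median log2 fold change of 0.16, with 33 higher and 0 lower. Their median deviation was 0.14 in DHEA 3 and 0.34 in DHEA 4, and between -0.13 and -0.015 in the other 6 libraries. All 10 myelin markers were higher (median 0.4), with the summed level from 6669 to 8507 CPM in DHEA and from 4538 to 6465 CPM in Sesame Oil, Mbp the most abundant and none at 0. Their median deviation was highest in DHEA 4 (0.43), but in DHEA 3 (0.078) it lay below DHEA 7 (0.13), DHEA 11 (0.19) and Sesame Oil 9 (0.087). Of 8 markers each, 4 of endothelium (median 0.25, most abundant Flt1), 4 of microglia (0.18) and 5 of astrocytes (0.17, Slc1a2) were higher. Endothelial markers summed to 380.2, 412, 329.7 and 372 CPM in DHEA 3, 4, 7 and 11 and to 308 to 344 CPM in Sesame Oil. Microglial markers summed to 388, 455, 363 and 342 CPM and to 310.04 to 363 CPM, and astrocytic ones to 6087, 7264, 6492 and 6393 CPM and to 5358 to 6183 CPM. Of 8 neuronal markers 0 were higher and 1 (Rbfox3) was lower, with a median of -0.028. In bulk tissue, fewer cells of a type and less RNA per cell cannot be told apart.

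Choroid plexus RNA varied more than the groups did. Its 8 markers, Ttr the most abundant, summed to 4544, 96.4, 2241 and 4204 CPM in DHEA 3, 4, 7 and 11 and to between 519 and 3173 CPM in Sesame Oil. None of the 8 passed the threshold. DHEA 3 and DHEA 4, the 2 libraries with the highest nuclear OXPHOS medians, had the highest and the lowest of these 8 sums, and the part of choroid plexus in the result was not tested. Of 5 red blood cell markers and 8 of striated muscle, 0 passed the threshold. Red blood cell markers summed to 159, 148, 45.7 and 105 CPM in DHEA 3, 4, 7 and 11. In Sesame Oil 5, 9, 10 and 16 they summed to 52.5, 93.3, 137 and 137 CPM. As with the nuclear OXPHOS medians, DHEA 3 and 4 were highest and DHEA 7 lowest, and the part of blood was not tested. Of the 7 tested anterior pituitary markers 3 were lower (Prl, Gh and Pomc). The pituitary markers summed to 30.3 CPM in Sesame Oil 10 and to between 1.85 and 6.91 CPM in the other 7 libraries. Of 7 thalamic markers 1 (Rora) was higher, and of 6 of oligodendrocyte precursors 2 were (Pdgfra and Olig1).

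Transcript length varied with the log2 fold change. The median length implied by the counts and FPKM was 794 bases over the 80 nuclear members and 4068 over the 12780 genes. The 34 members under 700 bases had a median log2 fold change of 0.13, and the 203 genes of that length a median of 0.12. Between 700 and 1000 bases the medians were 0.12 (11 members) and 0.09 (274 genes), and between 1000 and 2000 bases 0.08 (25 members) and 0.043 (1750 genes). The 10 members of 2000 bases and more had a median of 0.037, against 0.002 over 10553 genes. Spearman's rho of log2 fold change with length was -0.37 over the 80 members and -0.18 over all 12780 genes, and with GC content -0.28 (77 members) and -0.25 (12461 genes). Over 83 cytosolic ribosomal protein genes of that abundance it was 0.022 with length and -0.039 with GC content. These are correlations across genes of the same libraries, and genes are not independent replicates. After each library's trend with length was removed, 5 of the 96 members were higher, near the 4.68% of all genes in that fit, and 1 was lower, beside 4.92%. The median over the 90 nuclear members was then 0.023 in place of 0.11. COX1, CYTB, Ndufa5, Atp5j, Ndufa12 and Cox7b2 were the 6 called in both fits.

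The 6 mitochondrially encoded members had a median log2 fold change of -0.056, which was 0.2 without Sesame Oil 10, 0.045 without DHEA 11 and 0.056 without DHEA 11 and Sesame Oil 9, and 2 were higher. COX1, the catalytic subunit of complex IV, was at 29019, 35766, 26841 and 26721 CPM in DHEA 3, 4, 7 and 11 and 22527, 23935, 25182 and 24909 CPM in Sesame Oil 5, 9, 10 and 16. DHEA 4 stood highest and the groups did not overlap. The log2 fold change was 0.29 (standard error 0.091, edgeR adjusted p = 0.307). CYTB, cytochrome b of complex III, was at 14730.5, 17828, 14018 and 13149.9 CPM in DHEA 3, 4, 7 and 11 and 11568, 12376, 12958 and 12678 CPM in Sesame Oil 5, 9, 10 and 16, again without overlap, with 0.27 (standard error 0.087, edgeR adjusted p = 0.333). The ratio of COX1 to CYTB counts ran only from 1.91 to 2.03 over the 8 libraries. ATP6, ATP8, COX2 and COX3 did not pass the threshold and did not share a direction. ATP6, the proton channel subunit of complex V, was at 136, 131, 93 and 176 CPM in DHEA 3, 4, 7 and 11 and 101, 125, 346 and 93.2 CPM in Sesame Oil 5, 9, 10 and 16. COX3, a core subunit of complex IV, was at 134, 135, 121 and 86.5 CPM in DHEA 3, 4, 7 and 11 and 93.6, 145, 200.4 and 91.1 CPM in Sesame Oil 5, 9, 10 and 16. In both genes Sesame Oil 10 was the highest of the 8 libraries, and the log2 fold changes were -0.31 (standard error 0.3, edgeR adjusted p = 0.67) and -0.15 (standard error 0.19, edgeR adjusted p = 0.759). Without Sesame Oil 10, ATP6 was at 0.33 and passed the threshold as higher. With 1 library left out, COX3 ran from -0.30 to 0.12. COX2, which receives electrons from cytochrome c, was at 186, 233, 135 and 147 CPM in DHEA 3, 4, 7 and 11 and 151, 161, 166 and 203 CPM in Sesame Oil 5, 9, 10 and 16, with DHEA 4 the highest and a log2 fold change of 0.04 (standard error 0.13, edgeR adjusted p = 0.924). ATP8, a small subunit of complex V, was at 10.4, 10.8, 8.93 and 7.77 CPM in DHEA 3, 4, 7 and 11 and 17.2, 9.78, 5.72 and 12.8 CPM in Sesame Oil 5, 9, 10 and 16. Sesame Oil 10 was the lowest of the 8 libraries. The log2 fold change was -0.26 (standard error 0.22, edgeR adjusted p = 0.666), and without Sesame Oil 10 it was -0.48 and passed the threshold as lower, whereas without Sesame Oil 5, the highest library, it was 0.0094.

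All 7 mitochondrially encoded subunits of complex I, which the symbol rule leaves out, had log2 fold changes above 0 (median 0.29), and 4 were higher. ND6, the one encoded on the other strand of the mitochondrial genome, was at 116, 149, 109 and 104 CPM in DHEA 3, 4, 7 and 11 and 75.4, 79.6, 93.5 and 81.1 CPM in Sesame Oil 5, 9, 10 and 16, with 0.54 (standard error 0.097, edgeR adjusted p = 0.0818). ND5 was at 9791, 11246, 9792 and 9199 CPM in DHEA 3, 4, 7 and 11 and 7570.4, 7998, 8682 and 8390.1 CPM in Sesame Oil 5, 9, 10 and 16, with 0.29 (standard error 0.076, edgeR adjusted p = 0.245). Both were higher in every library labelled DHEA than in any labelled Sesame Oil. Together the 13 mitochondrial protein-coding genes took 7.87%, 9.34%, 7.58% and 7.29% of all counts in DHEA 3, 4, 7 and 11, and 6.37%, 6.87%, 7.23% and 6.99% in Sesame Oil 5, 9, 10 and 16.

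Per length, the levels counted for the 13 mitochondrial protein-coding genes spanned a 339-fold range. These are levels per gene as the reads were assigned, not levels of separate mRNA molecules. COX1 averaged 17353 FPKM and CYTB, ND1, ND2, ND5 and ND4 stood at 68.7%, 65.1%, 41%, 28.7% and 25.3% of it. COX2, ND3, ATP6, ND6, COX3, ND4L and ATP8 stood at 1.45%, 1.29%, 1.27%, 1.12%, 0.925%, 0.527% and 0.295%. Copies of mitochondrial genes in the nuclear genome were therefore looked for in GENCODE vM21 transcripts (GRCm38, while the submitters' processing notes name GRCm39), in windows of 150 bases, the length of a read. Of the windows of COX2, COX3, ATP6, ND3 and ND4L, 99.4%, 99.8%, 99.4%, 97% and 98% were identical in a nuclear transcript. For ND4 the share was 59.2%, for COX1 23.6%, and for CYTB, ND1, ND2, ND5, ND6 and ATP8 0%. The genes with nearly all windows shared were those at 0.527% to 1.45% of COX1. ND6 and ATP8 were also low, and no shared window was found for them. Only annotated transcripts were searched, so a copy elsewhere in the nuclear genome would be missed. The cause of the low levels was not tested. A read that fits a mitochondrial gene and its nuclear copy equally well cannot be assigned to either, and how such reads were handled is not given in the sources used here. Levels and differences of COX2, COX3, ATP6, ND3 and ND4L are therefore uncertain, as are those of ATP8, which overlaps ATP6 on the mitochondrial genome.

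**Figure D4:**
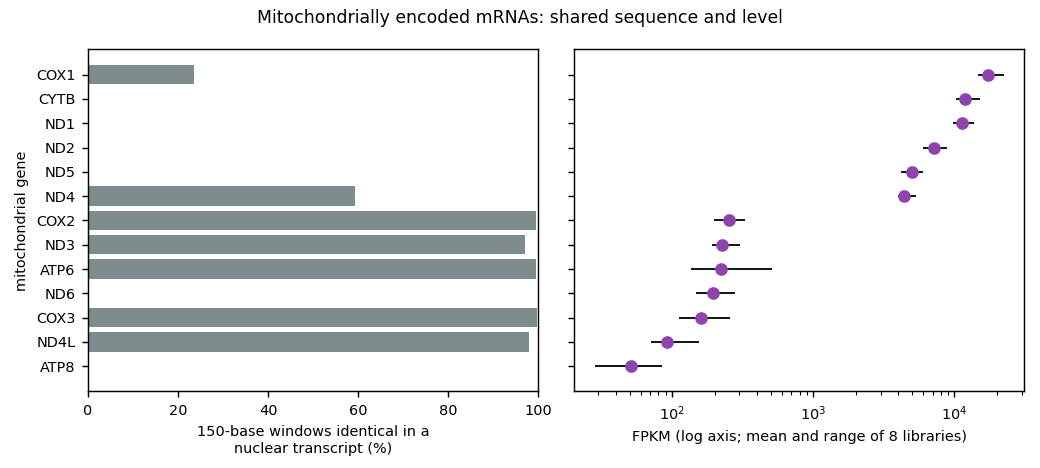
Share of 150-base windows identical in a nuclear transcript (left, %) and FPKM (right, log axis, mean and range of 8 libraries) for the 13 mitochondrial protein-coding genes (y axis, ordered by level). COX2, COX3, ATP6, ND3 and ND4L share 97% to 99.8% of their windows and lie far below COX1, CYTB, ND1, ND2, ND5 and ND4. So do ND6 and ATP8, for which no shared window was found in annotated transcripts.

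The sequences show stretches of 2 such copies. In the alignment of COX1 with the nuclear copy Gm29216 (492 bases, 6 differences), the differences, in capitals, lie within the first 13 bases of the copy, and bases 1054 to 1113 of the COX1 transcript are shown beside bases 1 to 60 of the copy. This stretch was picked because it holds all 6 differences. The rest of the aligned copy is the same as COX1. ATP6 and its copy Gm10925 are the same over their aligned 678 bases, of which bases 201 to 260 are shown once.
COX1: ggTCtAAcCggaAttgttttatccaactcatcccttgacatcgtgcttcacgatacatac
Gm29216: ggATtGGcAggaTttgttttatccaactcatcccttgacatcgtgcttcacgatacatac
ATP6 and Gm10925: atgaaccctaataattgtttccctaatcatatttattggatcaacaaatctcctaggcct

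Several subunits have alternative forms, and the forms known from other tissues lay far below the common forms in these libraries. Per length, Cox4i1 averaged 463 FPKM and Cox4i2, the lung and hypoxia form, 0.98 FPKM. Cox6a1 and the heart and muscle form Cox6a2 stood at 269.5 and 4.34 FPKM, and Cox7a2 and the muscle form Cox7a1 at 102 and 1.75 FPKM. Cox8a stood at 359.6 FPKM, against 3.77 FPKM for the muscle form Cox8b and 0.097 FPKM for Cox8c. Cox6b1 and Cox7b stood at 357 and 116 FPKM, against 4.48 and 0.22 FPKM for Cox6b2 and Cox7b2, both known from testis. Ndufa4 was at 294 FPKM and Ndufa4l2, induced by hypoxia, at 2.47 FPKM. The ranges over 8 libraries of the common and the restricted forms did not overlap in any of these 7 subunits. Cox7a2l, a factor of respiratory supercomplexes, was at 88.8 FPKM. The 3 genes of the ATP synthase c ring encode the same mature protein, and Atp5g1, Atp5g2 and Atp5g3 stood at 69.0, 83.6 and 111 FPKM, with log2 fold changes of 0.077, 0.076 and 0.017 and no p under 0.05. Ndufb4b, Ndufb4c and Ndufs6b, near-copies of Ndufb4 and Ndufs6, had mean counts of 29, 23 and 34 and may share reads with them.

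**Figure D5:**
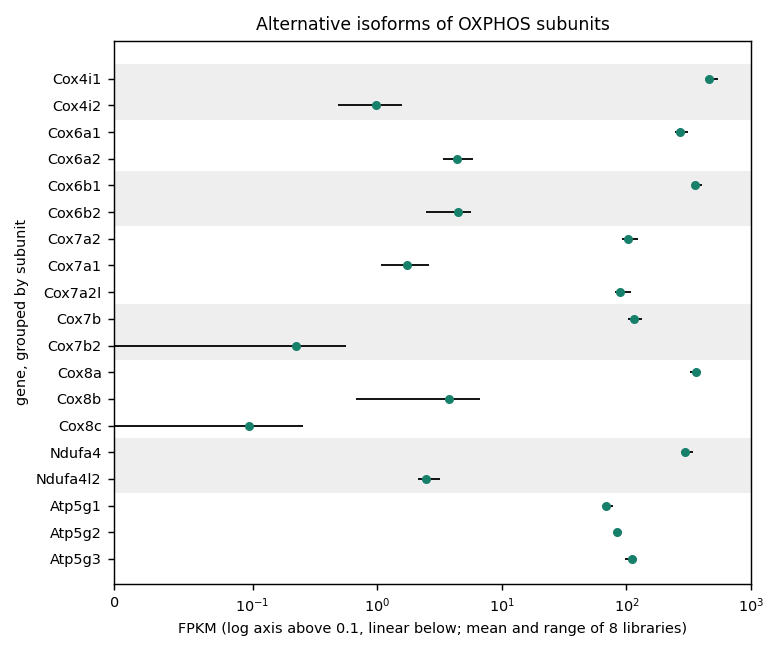
FPKM (x axis, log above 0.1 and linear below; mean and range of 8 libraries) of 19 genes for alternative forms of OXPHOS subunits, grouped by subunit (shading). The restricted forms, such as Cox4i2 (0.98) and Cox8b (3.77), lie far below the common forms, such as Cox4i1 (463) and Cox8a (359.6), while the 3 ATP synthase c genes lie close together.

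Genes that serve OXPHOS without being subunits are set here beside the 4.82% of all genes that were higher and the 4.49% that were lower, and their difference from the subunits was not tested. Of the tested assembly factors, 1 of 15 for complex I (Tmem126b, log2 fold change 0.25) and 1 of 24 for complex IV (Cmc1, 0.32) were higher, and 0 of 4, 6 and 6 for complexes II, III and V. Of 14 nuclear regulators of respiration genes, among them Nrf1, Yy1 and Ppargc1b, 0 passed the threshold, and their median was -0.029. Of 26 genes for mitochondrial transcription, replication and RNA handling, Slirp (0.27), which stabilises mitochondrial mRNA, was higher and Ssbp1 (-0.23), the single-stranded DNA binding protein, was lower. Among 78 mitochondrial ribosomal proteins 4 were higher and 1 lower (median 0.049). In the tricarboxylic acid cycle 1 of 18 was higher (Suclg2, 0.34), in glycolysis 0 of 17. In ubiquinone synthesis and electron entry 3 of 16 were higher, Etfa (0.28) and Etfb (0.23), which bring electrons from fatty acid oxidation, and Coq3 (0.22). Of 11 mitochondrial carriers and uncoupling proteins 1 was lower (Slc25a27, also known as Ucp4, -0.36), and of 11 genes of fission and fusion 1 was higher (Fis1, 0.22). Ndufab1 and Dmac2l, complex I and V proteins outside the symbol rule, did not pass the threshold.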

How the data were processed

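Poly(A) RNA of 8 ventral hippocampi was sequenced as paired-end reads. Per the methods, reads of low quality were removed, and the rest were mapped by HISAT2 and assigned to genes by HTSeq-count. Raw counts per gene were deposited. GRCm39, fastp, HISAT2 and HTSeq are named in the submitters' processing notes, and versions and annotation are not given in the sources used here. The FPKM values the authors deposited are the counts divided by the library total and 1 length per gene, so FPKM was used for levels per length and to recover that length. Total counts of 31483772 to 38038361 make 3 counts less than 0.1 CPM, and this covers counting error only.

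The 27612 genes with at least 1 count were fitted with edgeR 4.0.16 (R 4.3.3) by TMM normalization, a prior count of 0.125 and the quasi-likelihood test, with Benjamini-Hochberg adjustment over all of them. CPM are TMM-scaled counts. Single members were also compared by exact permutation (two-sided, 70 allocations of 4 against 4 libraries). The groups share no replicate numbers and no batch is given, and p-values measure the spread between these libraries. Named were the 6 mitochondrial members, the 12 members with the smallest p, the member with the smallest p in each direction and the most abundant one of each role, the alternative forms, and up to 3 genes of each further list. The remaining called members, and those called without DHEA 3 and 4, were added after their values were seen, and 1 member is not reported here by name. The symbol rule used no measured value, but it, the lists and the tests were chosen with earlier results of these data known. None is therefore independent support. Alternatives were DESeq2 1.42.0, limma 3.58.1 on FPKM, other normalizations, filters, prior and moderation, removal of mitochondrial genes or of a length or GC trend, leaving out libraries, and the 6 libraries other than DHEA 11 and Sesame Oil 9, since the deposited design text speaks of 6 tissues. The fit was tested on simulated data. Windows of 150 bases of each mitochondrial transcript were searched in GENCODE vM21 nuclear transcripts. Proteins were not analysed here.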

Additional observations from a re-analysis of the deposited data

Results flagged for a closer look

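Of 102 groups of 4 libraries examined, for 51 named members in 2 groups, 2 held a library whose gap to the nearest other exceeded the 95% critical value of Dixon's ratio for 4 values. Chance would give about 5.1. For ATP6, Sesame Oil 10 stood at 346 CPM and the other Sesame Oil libraries between 93.2 and 125 CPM, a ratio of 0.875. Without that library the log2 fold change of ATP6 was 0.33 in place of -0.31. For Cox6b2, the testis form of a complex IV subunit, Sesame Oil 9 stood at 2.49 CPM below 2.82 to 2.89 CPM in the others, a ratio of 0.841 at a mean count of 95.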

How the results depend on the processing

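No paired analysis was possible because the groups share no replicate number and the litter of each library is not given. The number of genes past an unadjusted p of 0.05 stayed within 1.5 times 2571 under every alternative, from 1786 to 3667 when 1 library was left out. The number of members higher in DHEA, 18, was 11 and 10 with limma-trend at a pseudocount of 1 and of 0.1 FPKM, 5 with the length trend removed and 3 without DHEA 3 and 4, and 4 to 42 with 1 library left out. The number lower, 1, was 2 with the GC trend removed, 0 in the 6 libraries without DHEA 11 and Sesame Oil 9, 7 without DHEA 3 and 4, and 0 to 2 with 1 library left out. The nuclear median of 0.11 was 0.023 with the length trend removed, 0.064 and 0.068 with limma-trend at a pseudocount of 1 and of 0.1 FPKM, -0.018 without DHEA 3 and 4, 0.056 to 0.16 with 1 library left out and 0.084 to 0.14 under the rest. The mitochondrial median of -0.056 was 0.056 in the 6 libraries, -0.29 without DHEA 3 and 4, -0.16 and -0.14 with the length and the GC trend removed, -0.087 with library totals only, and -0.18 to 0.2 with 1 library left out. The cause of these shifts was not tested.

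Among the 51 named members, sign changes of the log2 fold change occurred as follows. Without DHEA 3 and 4, Atp5b (-0.056), Atp5g1 (-0.033), Atp5g2 (-0.018), Atp5g3 (-0.097), Atp5j2 (-0.15), COX2 (-0.28), Cox4i1 (-0.0088), Cox6a1 (-0.066), Cox6a2 (-0.098), Cox6b1 (-0.023), Cox6b2 (0.050), Cox7a2 (-0.013), Cox7a2l (-0.014), Cox7b (-0.094), Cox8a (-0.052), Ndufa4l2 (-0.0098), Ndufs3 (-0.025), Sdha (-0.012), Sdhb (-0.018) and Uqcrh (-0.0063) changed sign. With the GC trend removed, Atp5d (0.025), COX2 (-0.048) and Ndufb10 (0.0065) changed sign. In the 6 libraries, Atp5d (0.0058), COX3 (0.019), Cox6a2 (-0.050), Cox8b (-0.22) and Ndufb10 (0.0093) changed sign. With the length trend removed, Atp5g2 (-0.024), Atp5g3 (-0.031), Atp5j2 (-0.070), COX2 (-0.068), Cox6a1 (-0.023), Cox6a2 (-0.064), Cox6b1 (-0.024), Cox7b (-0.0011), Cox8a (-0.048), Ndufs3 (-0.022) and Uqcrh (-0.023) changed sign. With library totals only, Atp5g3 (-0.012) changed sign. With limma-trend on log2(FPKM + 1), Atp5g3 (-0.014), COX2 (-0.0088) and Cox6a2 (-0.015) changed sign. With limma-trend on log2(FPKM + 0.1), Atp5g3 (-0.014), COX2 (-0.0089), Cox6a2 (-0.021) and Cox8b (-0.035) changed sign. With 1 library left out, the sign changed in ATP6 (-0.51 to 0.33), ATP8 (-0.48 to 0.0094), Atp5d (-0.054 to 0.020), Atp5g3 (-0.036 to 0.080), Atp5j2 (-0.011 to 0.13), COX2 (-0.13 to 0.15), COX3 (-0.30 to 0.12), Cox4i2 (-0.071 to 0.51), Cox6a2 (-0.16 to 0.12), Cox6b2 (-0.20 to 0.12), Cox7b (-0.015 to 0.14), Cox8b (-0.017 to 0.64), Cox8c (-0.017 to 2.11), Ndufa4l2 (-0.036 to 0.20), Ndufb10 (-0.068 to 0.040) and Ndufb11 (-0.11 to 0.028). ATP6 passed the threshold in the new direction without Sesame Oil 10, and COX2 and Atp5j2 did so without DHEA 3 and 4. Counts under 100, nuclear copies of mitochondrial genes and 4 libraries a group limit what can be told.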
